A study of Homo sapiens with 8 samples.

Results

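The effect of the HER2 kinase inhibitor lapatinib was examined in BT474m1 breast cancer cells treated with the BET bromodomain inhibitor JQ1. The comparison was of 2 libraries taken after 48 h, the first with JQ1 at 300 nM and lapatinib at 300 nM and the second with JQ1 at that dose alone. These are 2 of the 8 libraries of the series, which also holds BT474m1 cells with DMSO, the vehicle, or with lapatinib, and the line SKBR-3 with the same 4 treatments. BT474m1 is a derivative of BT474 with amplified HER2 that expresses the estrogen and progesterone receptors, whereas SKBR-3 has amplified HER2 and lacks them. Each group held 1 library of poly(A) RNA from 1 line, so differences have no replicate check and no p-value is given. Both libraries of the comparison carry JQ1, which makes the BET inhibitor the shared background and lapatinib the only difference that the labels give. No order of the drugs is labelled, and lapatinib added to JQ1 names the comparison here, not a sequence. The question was what HER2 kinase inhibition still does once BET proteins are inhibited.

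Lapatinib blocks the kinases of EGFR and HER2 (the product of ERBB2). In HER2-amplified cells these receptors, with HER3 (ERBB3), drive the RAS-ERK cascade and the PI3K-AKT pathway. Active ERK raises its own feedback inhibitors, among them the DUSP phosphatases and the Sprouty proteins. Active AKT keeps FOXO transcription factors out of the nucleus, so that FOXO target genes mark low PI3K signalling, and both arms feed into cyclin D, E2F and the cell cycle genes. JQ1 occupies the acetyl-lysine pockets of BET proteins such as BRD2 and BRD3, which otherwise read acetylated chromatin at promoters and enhancers.

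Values are given as normalised read counts, which the authors had brought to a common upper quartile of 1000 in each library. The JQ1 library held 33876455 reads on genes and the library with both drugs 27297713. A change is the difference in log2(value + 1), and a gene is called at a fold change of 2 or more where its value was 100 or more in either library. The 95% intervals in brackets are of the log2 ratio of the reads behind each value, without a pseudocount, and cover counting error only. All 7 epithelial markers examined passed the filter, with summed values of 217791 with JQ1 and 210403 with both drugs, whereas 9 immune markers summed to 34.8 and 92.7 and 6 basal markers to 35.0 and 25.1. Of 9 stromal markers, with summed values of 414 and 348, COL1A1 alone passed the filter.

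Of 10647 genes that passed the filter, 734 (6.89%) were higher and 593 (5.57%) lower after lapatinib was added to JQ1, and the median change of all genes was 0.03. For all 734 raised and all 593 lowered genes the counting interval excluded no change. The filter and the 2-fold rule fix this outcome in advance at this depth, so it adds no support to the calls. The large decreases outnumbered the large increases: 217 genes were 4-fold or more lower against 155 higher, 132 were 8-fold or more lower against 37 higher, and 52 were 16-fold or more lower against 13 higher. Called genes were more frequent at low values, with 13.7% raised and 9.34% lowered among the 2130 genes whose higher value lay between 100 and 300, and 4.10% and 3.65% among the 1343 genes at 3000 or more.

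The gene that fell most was RRM2 (Entrez 6241), the regulatory subunit of ribonucleotide reductase, which supplies nucleotides for DNA synthesis. RRM2 had a value of 3548 with JQ1 and 29.7 with both drugs, a log2 change of -6.85 (-7.33 to -6.50). Next came CDC45 (Entrez 8318), part of the replicative helicase, with values of 371 and 5.25 and a change of -5.90 (-7.28 to -5.21), and DUSP6 (Entrez 1848), a phosphatase that switches off ERK, with values of 829 and 16.3 and a change of -5.58 (-6.26 to -5.13). The other genes among the 15 that fell most were SPC25, BIRC5, MCM10, UHRF1, MYBL2, DTL, AURKB, NPR3, SHCBP1, E2F7, FAM111B and PBK, and most of these act in DNA replication or mitosis. NPR3, the clearance receptor for natriuretic peptides, does not, and had values of 207 with JQ1 and 5.83 with both drugs.

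Of the genes that rose, DEPP1 (Entrez 11067), a FOXO-responsive gene, went from 39.6 with JQ1 to 2365 with both drugs, a change of 5.86 (5.58 to 6.23). CYP1A1 (Entrez 1543), a monooxygenase and the classical target of the aryl hydrocarbon receptor, went from 152 to 5900.3, a change of 5.27 (5.12 to 5.45). Both genes stood higher with the combination than in any other BT474m1 library, since lapatinib alone gave 719 for DEPP1 and 2056 for CYP1A1. PDE4C, a cyclic AMP phosphodiesterase, had a value of 1.45, or 3 reads, with JQ1 and 159 with both drugs, a ratio of 109.8 that rests on few reads, with an interval of 5.22 to 9.07 on the log2 scale. TBC1D3C, TBC1D3G and TRIM74 also stood among the 15 genes that rose most, but belong to groups of nearly identical gene copies between which reads can be divided differently in each library, and their changes are uncertain. The others were CFAP70, KCND1, NKPD1, AVIL, STRC, SLC25A27, AOC2, ACRBP and DNAI4, each at a low level with JQ1, from 6.76 for KCND1, STRC and DNAI4 to 52.3 for CFAP70. CFAP70 and DNAI4 encode parts of motile cilia, and STRC has a close copy and is uncertain.

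**Figure D1:**
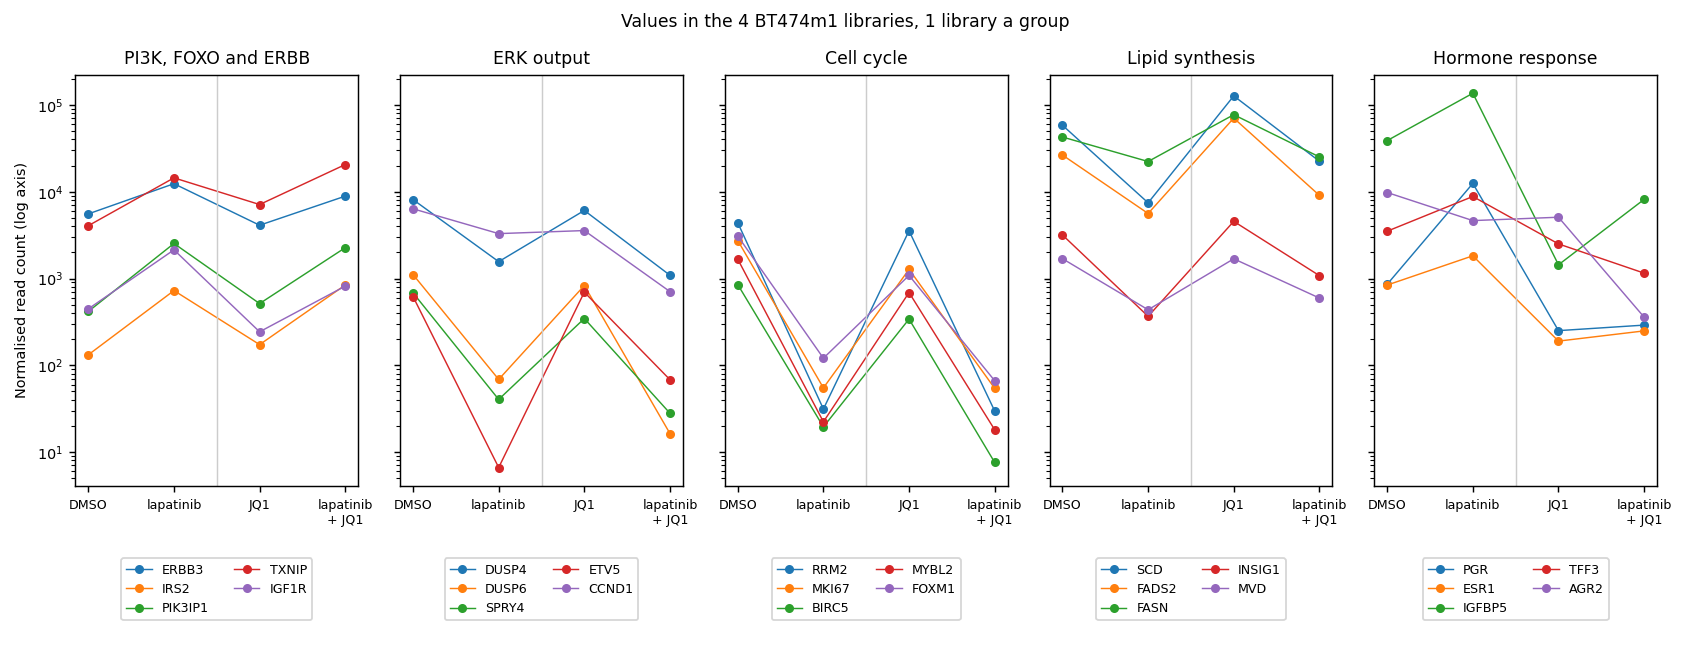
Normalised read counts on a log axis of 25 genes in the 4 BT474m1 libraries, 1 point a library, with 5 genes in each of 5 panels and lines joining the points of a gene. In the first 4 panels the step from JQ1 to lapatinib with JQ1 runs the same way as that from DMSO to lapatinib, while in the last panel PGR reaches 12466 with lapatinib and 290.3 with both drugs.

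The receptors themselves came first, since ERBB2 is the target of the added drug. ERBB2 had a value of 94678 with JQ1 and 104594 with both drugs, a change of 0.14 (0.13 to 0.15). ERBB3, the kinase-impaired partner that couples HER2 to PI3K, went from 4112 to 8897, a change of 1.11 (1.08 to 1.15), and was the only called gene among the 4 receptors. EGFR went from 1943 to 2941 (0.60) and ERBB4 from 183 to 205 (0.16, with an interval of -0.05 to 0.37). Without JQ1, lapatinib took ERBB3 from 5557 to 12375 and thus by 1.15, so that the step of ERBB3 was 0.04 smaller with JQ1, from a lower start. None of the 8 negative regulators of the family was called, where 12.5% of all genes were and so short a list can hold 0, including LRIG1, which lowers receptor protein (955 and 1313), and ERRFI1, a direct kinase inhibitor of EGFR and HER2 (662 and 506). Among the EGF-family ligands TGFA alone passed the filter, with values of 318 and 238.

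Of 13 ERK output genes that passed the filter, 7 were lower and 0 higher, against 5.57% and 6.89% of all genes, and the median was -2.34. Beside DUSP6, SPRY4, a Sprouty inhibitor of receptor signalling, fell from 346 to 28.0 (-3.58), and ETV5, an ETS factor induced by ERK, from 696 to 68.2 (-3.33). EPHA2, an ephrin receptor downstream of ERK, fell from 269 to 36.2 (-2.86), and DUSP4, the member of highest value, from 6085 to 1089.8 (-2.48). CCND1, the cyclin D1 gene, fell from 3569 to 706 (-2.34). ETV5 and CCND1 differed in opposite ways from their response without JQ1. ETV5 fell by 6.34 with lapatinib alone, down to 6.63, whereas CCND1 fell by 0.95, from 6358 to 3290.4. DUSP6 also fell further with JQ1 present, by 5.58 against 3.99. Immediate early and AP-1 factors did not follow this list: of 8 that passed the filter, EGR1, a zinc finger factor that ERK induces, was higher at 263 against 52.2 (2.31), and 0 were lower. JUN had the values 2220.3 and 4079 (0.88).

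FOXO targets and PI3K feedback genes were higher in 10 of 18 members that passed the filter and lower in 0, with a median of 1.06. The background over all genes was 6.89% higher and 5.57% lower. IRS2, the adaptor of the insulin and IGF1 receptors, went from 173 to 841 (2.28), and PIK3IP1, an inhibitor of the PI3K catalytic subunit, from 514 to 2265 (2.14). FOXO4, itself a FOXO factor, went from 93.7 to 377 and IGF1R, the receptor of insulin-like growth factor 1, from 243 to 817 (1.75). TXNIP, the thioredoxin-binding protein that limits glucose uptake and the member of highest value with both drugs, went from 7119 to 20571 (1.53). With lapatinib alone 10 of 19 members were higher, where 9.04% of all genes were, and the median was 1.15. Outside the ERBB family, of 18 receptor tyrosine kinases 3 were higher and 6 lower, against 6.89% and 5.57% of all genes. MERTK, a receptor for Gas6, went from 45.4 to 306 (2.72), and FGFR3 fell from 1062 to 294 (-1.85).

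Most cell cycle genes were lower, where fewer cycling cells and less RNA per cell cannot be told apart in bulk RNA. All 25 mitotic genes were lower with both drugs than with JQ1, with a median of -3.69, and 23 of 25 DNA replication genes were lower, with a median of -2.28. The share of all genes that were lower was 5.57%. Among mitotic genes SPC25, a kinetochore component, fell from 186 to 2.92 (-5.58), BIRC5, the survivin subunit of the chromosomal passenger complex, from 341 to 7.59 (-5.31), and AURKB, the kinase of that complex, from 325 to 9.33 (-4.98). BIRC5 overlaps EPR1 on the opposite strand, and it is uncertain whether the counting used strand. MKI67, which encodes the proliferation antigen Ki-67, fell from 1275 to 54.2 (-4.53) and TOP2A, a topoisomerase and the mitotic member of highest value, from 2897 to 338 (-3.10). Of the replication genes, MCM10 went from 408 to 9.91 (-5.23) and UHRF1, which maintains DNA methylation at the fork, from 404 to 9.91 (-5.21). PCNA, the sliding clamp and the replication gene of highest value, went from 5215 to 2725 (-0.94) and was not called.

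Of 10 E2F, MYB and pocket protein genes 5 were lower and 1 was higher, with a median of -2.37, which turned to 0.065 when values of 1000 were required in place of 100. MYBL2, which with FOXM1 turns on mitotic genes, fell from 689 to 18.1 (-5.18), FOXM1 from 1085 to 66.4 (-4.01), and the E2F factors E2F7 and E2F2 from 137 to 4.08 (-4.77) and from 202 to 10.5 (-4.15). The 1 that rose was RBL2, the p130 pocket protein that holds quiescent cells in G0, from 1008 to 2766 (1.46). The G1 list was split, with 5 of 12 lower and 1 higher. For this list and the E2F list the background over all genes was 5.57% lower and 6.89% higher. CDKN1C, the p57 inhibitor of cyclin-dependent kinases, went from 15.5 to 164 (3.33), while CDKN1A, the p21 inhibitor, fell from 552 to 106 (-2.38) and CDKN2C, the p18 inhibitor, from 222 to 50.1 (-2.12).

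The size of the lapatinib effect with and without JQ1 differed by 2-fold or more for some of the cell cycle genes. JQ1 alone put MYBL2 at 689 against 1669 with DMSO, and MKI67 at 1275 against 2739.7, and the end points were 18.1 with both drugs and 22.3 with lapatinib for MYBL2 and 54.2 and 54.8 for MKI67. RRM2 ended at 29.7 and 31.3. Other end points lay further apart, higher with both drugs for PCNA, at 2725 and 848, and lower for UHRF1, at 9.91 and 30.1, and BIRC5, at 7.59 and 19.5. Of the 25 mitotic genes, 10 had a lapatinib effect 2-fold or more higher (less negative) with JQ1 and 0 a lower one, with a median difference of 0.89 on the log2 scale. Of the 25 DNA replication genes, 8 were higher and 0 lower (median 0.67). Of the 11 E2F, MYB and pocket protein genes with a value for this difference, 0 reached 2-fold either way (median 0.21), and MYBL2 (0.99), RRM2 (0.24), BIRC5 (0.06) and UHRF1 (-0.16) did not reach it. The background over all genes was 2.19% higher and 2.24% lower with JQ1.

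Mitotic promoters often carry the cell cycle homology region, the letters TTTGAA, close to the start site, where the DREAM and MYBL2-FOXM1 complexes bind. Promoter windows of 300 bases, 250 before and 50 after the start, came from RefSeq GRCh38.p14, and 6 spellings were searched on both strands, none of which contains another: TTTGAA, the E2F spelling GCGGGAA, the FOX spellings GTAAACA and GTCAACA, the E-box CACGTG and the AP-1 spelling TGACTCA. The planned comparison of all raised and all lowered genes is void, since windows matched only 73.6% of the raised and 79.3% of the lowered genes, under the 80.0% required, and so is one of genes raised 4-fold or more, at 71.6%. The sets described here were added after the values were seen. Of the genes 8-fold or more lower, 109 of 132 had a window and 53 of these (48.6%) held TTTGAA, against 9.13% of the 8682 genes tested that had a window and 15.4% of all 27305 promoters. In the same 109 windows the other spellings lay nearer to the 8682 windows: GCGGGAA in 16.5% against 10.9%, CACGTG in 9.17% against 10.6%, GTAAACA in 0.917% against 2.19%, and GTCAACA and TGACTCA in 0 windows against 1.34% and 2.51%. In the replication, mitosis and E2F lists together, 17 of 51 windows (33.3%) held TTTGAA and 27.5% held GCGGGAA. The stretches below were picked because they hold TTTGAA, shown in capitals, and end at the base before the start site of the first RefSeq window of each gene. The windows of RRM2, CDC45 and AURKB hold none.
PLK1 (chr16:23678829-23678888, plus strand): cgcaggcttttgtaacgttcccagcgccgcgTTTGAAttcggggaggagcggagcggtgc
CCNB2 (chr15:59105086-59105145, plus strand): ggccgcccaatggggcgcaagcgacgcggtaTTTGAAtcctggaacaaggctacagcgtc
BUB1B (chr15:40161009-40161068, plus strand): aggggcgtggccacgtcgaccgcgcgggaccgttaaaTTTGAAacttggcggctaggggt
MKI67 (chr10:128126424-128126483, minus strand): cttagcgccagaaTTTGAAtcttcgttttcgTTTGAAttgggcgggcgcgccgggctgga
CENPA (chr2:26785996-26786055, plus strand): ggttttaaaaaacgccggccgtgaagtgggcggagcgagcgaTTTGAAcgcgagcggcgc
These 5 genes encode the mitotic kinase PLK1, cyclin B2, the checkpoint kinase BUBR1, Ki-67 and the centromeric histone CENP-A. PLK1 went from 698 to 53.1 (-3.69), CCNB2 from 602 to 47.8 (-3.63), BUB1B from 587 to 31.7 (-4.17) and CENPA from 357 to 35.0 (-3.32). A match is a description of the letters and not a bound site.

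The FOX spelling GTAAACA, which FOXO and other forkhead factors can bind, was held by 3 of the 17 windows of the FOXO and PI3K list (17.6%), against 2.19% of the genes tested and 3.41% of all promoters, and GTCAACA by 0 of 17. Of the 24 windows of the sterol and fatty acid lists, 1 held GTAAACA and 2 held TTTGAA. The 3 windows belong to TXNIP, FOXO4 and PIK3CA. PIK3CA, a catalytic subunit of PI3K, was not called, with 319 on JQ1 and 343 with both drugs (0.10). The windows of the first 2 genes are shown in part, again picked for the match, with the spelling in capitals. In TXNIP it begins 124 bases before the start site and in FOXO4 it lies just after it.
TXNIP (chr1:145996667-145996733, minus strand): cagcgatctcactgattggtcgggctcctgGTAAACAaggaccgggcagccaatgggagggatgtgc
FOXO4 (chrX:71095863-71095891, plus strand): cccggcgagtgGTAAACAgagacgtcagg
The window of PIK3IP1, a gene that rose more than TXNIP, holds neither FOX spelling.

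Lipid synthesis held the genes of highest value among those that fell. SCD, the desaturase that makes monounsaturated fatty acids, had a value of 127178 with JQ1, above the 58336 with DMSO, and fell to 22471 with both drugs (-2.50). FADS2, the delta-6 desaturase, fell from 70569.5 to 9076 (-2.96), FASN, fatty acid synthase, from 77244 to 25190.1 (-1.62) and FADS1, the delta-5 desaturase, from 3864 to 1301 (-1.57). In all, 6 of 12 fatty acid genes were lower and 0 higher, with a median of -0.98. Sterol genes were lower in 9 of 18 and higher in 0, with a median of -1.001. For both lists the background over all genes was 5.57% lower and 6.89% higher. INSIG1, the sterol sensor that retains SREBP, fell from 4556 to 1079 (-2.08), MVD, a mevalonate pathway decarboxylase, from 1686 to 595 (-1.50), and FDFT1, squalene synthase, from 6086 to 2375 (-1.36). With lapatinib alone 13 of 18 sterol genes were lower, where 6.62% of all genes were, and the median was -1.73.

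**Figure D2:**
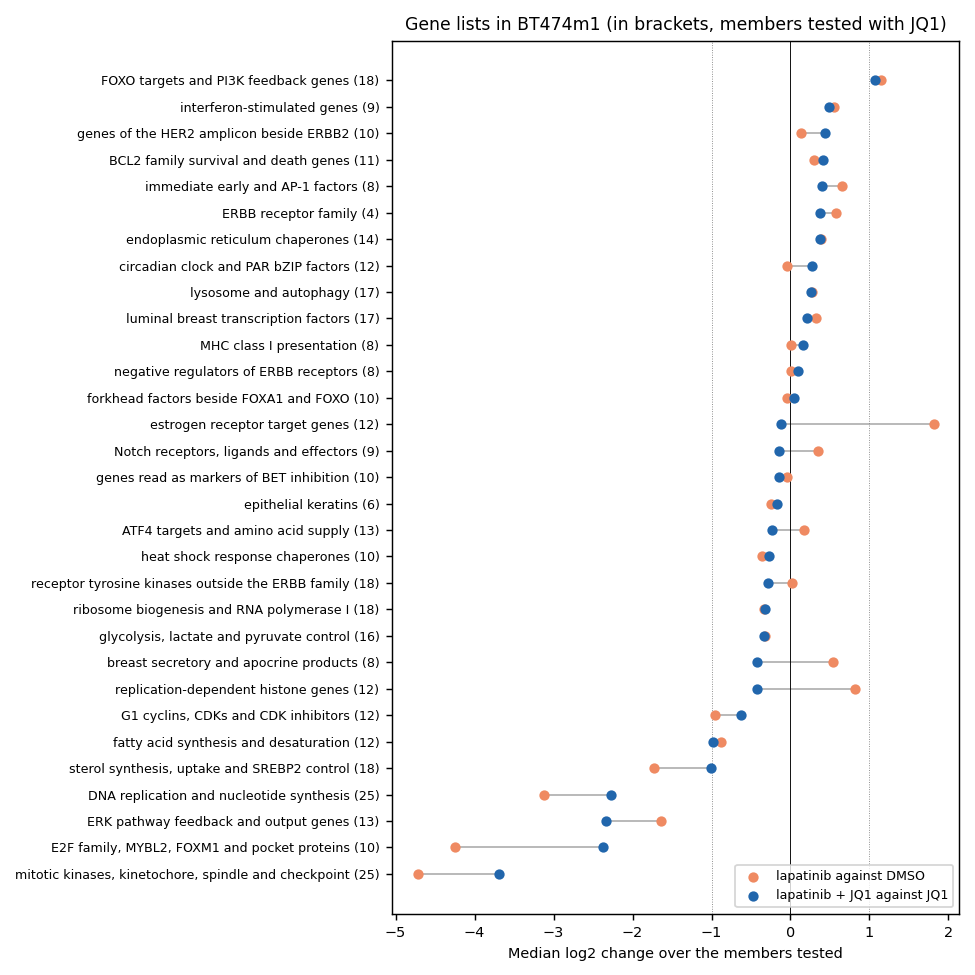
Median log2 change of each gene list in BT474m1 for lapatinib against DMSO (orange) and for lapatinib with JQ1 against JQ1 (blue), each over the members that passed the filter of that contrast, for lists with 4 or more members. The mitotic list lies farthest left in both contrasts, and the estrogen receptor targets move from 1.81 to -0.12.

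Hormone response genes differed between lapatinib with and without JQ1. The estrogen receptor works as a ligand-activated transcription factor in luminal breast cells, and PGR, the progesterone receptor gene, is its best known target. Lapatinib alone raised 11 of 15 estrogen receptor targets and lowered 1, with a median of 1.81, against a background of 9.04% raised and 6.62% lowered. Added to JQ1 it raised 1 of 12 and lowered 3, against a background of 6.89% raised and 5.57% lowered. The median was -0.12, which was 0.15, 0.073 and 0.083 with filters of 10, none and 1000. Of 15 members that reached a value of 100 in any BT474m1 library, 10 had a lapatinib effect 2-fold or more lower with JQ1 and 0 a higher one, with a median difference of -1.71. Of all genes 2.24% had a lower effect. Only 12 of the 15 reached 100 with JQ1 present, so the medians cover unlike members. The rest entered through libraries without JQ1, and where that was the lapatinib library, entry favours a lower effect with JQ1.

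PGR had a value of 858 with DMSO, 12466 after lapatinib, 251 with JQ1 and 290.3 with both drugs. Its change was thus 3.86 without JQ1 and 0.21 (0.03 to 0.39) with it. ESR1, which encodes the receptor, had the values 840.2, 1827, 189.9 and 249 in the same order, with a change of 0.39 in the presence of JQ1. TFF3, a secreted trefoil peptide, went from 3509 to 8816 without JQ1 and from 2504 to 1153 with it, and was the only gene called in opposite directions by the 2 contrasts. AGR2, a disulfide isomerase of mucus-producing cells, fell in both, from 9799 to 4649 and from 5084 to 359, with changes of -1.08 and -3.82. IGFBP5, which binds insulin-like growth factors, was the member that rose in both: its values were 38861, 136501, 1438 and 8159.8, with changes of 1.81 and 2.50, and the library with both drugs stayed below that with DMSO. MYBL1, a MYB-family factor, fell from 239.6 to 86.9 with JQ1 present (-1.45).

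Of 17 luminal transcription factors, 2 were higher and 0 lower, a share near the 12.5% of all genes called in either direction. EHF, an epithelial ETS factor, had values of 2847 with DMSO, 4189 after lapatinib, 432 with JQ1 and 2787 with both drugs, so that its change was 0.56 without JQ1 and 2.69 with it. ELF5, another ETS factor that directs alveolar cells, went from 263 to 600.0 (1.19). The other 15 were not called, among them SPDEF, an ETS factor of secretory cells, at 5505 and 3503 (-0.65). FOXA1, the pioneer factor of luminal cells, had values of 13200.0 and 10157 (-0.38), GATA3 of 1938 and 1779 (-0.12), and XBP1 of 8399 and 9448 (0.17). MYB had values of 1133, 2186, 561 and 426 in the 4 libraries, with changes of 0.95 without JQ1 and -0.40 with it. Also among them were PGR and ESR1, given above, TFAP2A (-0.17), TFAP2C (0.07), ELF3 (0.38), GRHL2 (-0.19), TRPS1 (0.29) and ZNF217 (0.28).

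Replication-dependent histone genes, whose transcripts mostly lack a poly(A) tail and which have close copies, had a similar split. Added to JQ1, lapatinib lowered 5 of 12 and raised 1, with a median of -0.42, whereas alone it raised 4 of 9 and lowered 0, with a median of 0.81. H2BC4 had values of 88.8 with DMSO, 95.9 after lapatinib, 207 with JQ1 and 63.5 with both drugs, and H4C8 of 154, 223, 528 and 219. H2AC25 was the member that rose, from 94.7 to 272 with JQ1 present. For 10 of 12 members the lapatinib effect was 2-fold or more lower with JQ1, against 2.24% of all genes. H2BC4 and H2BC8 passed the filter only through the library with JQ1 alone, which favours a lower effect there.

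Genes read as markers of BET inhibition, and the BET proteins, were examined because JQ1 was present on both sides. None of 10 was called in either direction and their median was -0.14, but with 12.5% of all genes called a list of this length can hold 0. HEXIM1, an inhibitor of the elongation factor P-TEFb that rises with BET inhibitors, had values of 1204 with DMSO, 1046 after lapatinib, 2909.7 with JQ1 and 2931 with both drugs. SERPINI1, a serpin, had values of 131 with JQ1 and 118 with both drugs, and ZMYND8, a reader of acetylated chromatin, of 795 and 883. BRD2 went from 8556 to 6367 (-0.43) and BRD3 from 2389 to 2647 (0.15). The changes of ZCCHC24 (-0.42), of CDK9 (-0.17), the P-TEFb kinase, and of its cyclins CCNT1 (-0.14) and CCNT2 (-0.08) were of like size.

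Across genes the effect of lapatinib with JQ1 was close to that without it. The contrasts share no library, and over 10422 genes that passed the filter in both, Pearson's r was 0.898 and Spearman's rho 0.850, a description across genes, which are not independent replicates. The slope of the effect with JQ1 on that without it was 0.785. Of the 807 genes raised by lapatinib alone, 508 (62.9%) were also raised with JQ1 present, and these made up 75.4% of the 674 raised there. Of the 648 lowered genes, 446 (68.8%) were also lowered, 79.5% of the 561 lowered there. The same sign was kept by 96.3% of the raised and 98.9% of the lowered genes, while their medians were 1.39 without and 1.19 with JQ1 for the raised and -1.85 and -1.34 for the lowered. These genes were chosen on the contrast without JQ1. Chosen on the contrast with JQ1, the medians were 1.39 without and 1.41 with JQ1 for the raised and -1.97 and -1.63 for the lowered. CELF6, an RNA-binding protein, DEPP1 and CYP1A1 were among the genes with the largest increases common to both, and RRM2, CDC45 and BIRC5 among those with the largest common decreases.

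**Figure D3:**
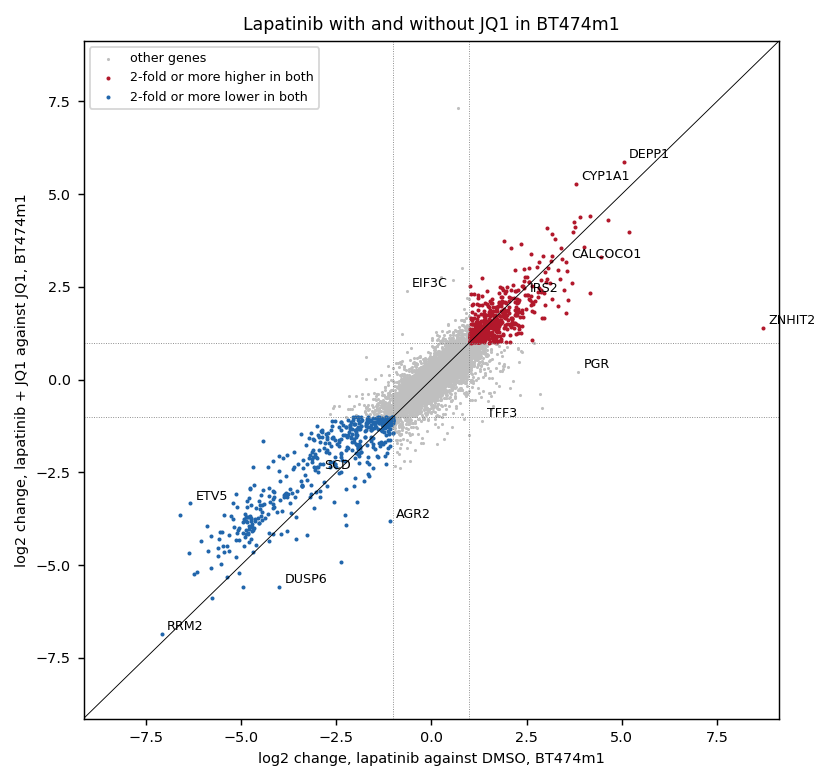
Log2 change of lapatinib with JQ1 against JQ1 (vertical) and of lapatinib against DMSO (horizontal) in BT474m1 for the 10422 genes that passed the filter in both, 1 point a gene, with dotted lines at 2-fold and a solid line of equality. The 508 genes raised in both (red) and 446 lowered in both (blue) spread along the line of equality, with many lowered genes above it, and PGR, TFF3 and AGR2 lie below it.

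The lapatinib effect was 2-fold or more higher with JQ1 for 246 of 11229 genes (2.19%) and lower for 252 (2.24%). These differences of effects were not tested, as each group held 1 library. Among the 10 largest lower differences were PGR, ADCY1, LOXL4, TEX14 and SEPTIN4. ADCY1, an adenylyl cyclase, had values of 158 with DMSO, 1184 after lapatinib, 387 with JQ1 and 226 with both drugs. LOXL4, a lysyl oxidase of the matrix, had values of 42.4, 1049, 6.28 and 9.91, and TEX14, an intercellular bridge protein, of 52.8, 489.8, 55.1 and 45.5. SEPTIN4, a filament-forming GTPase, had values of 14.6, 124, 65.7 and 43.1. KLK10, KCNF1 and LGR6 were at or under the floor of 3 reads in both libraries with JQ1, so no fold is given there. LOXL4, TEX14, SEPTIN4, KLK10, KCNF1 and LGR6 reached the value of the filter only in the library with lapatinib alone. Entry through that library favours a lower effect with JQ1, so their rank is not independent of how they were selected. ZNHIT2 was listed at 0 with DMSO and 157 with JQ1, and PPIAL4C, which has close copies, at 0 with DMSO and 129 with JQ1, and both rest on that listing. PPIAL4C reached the value of the filter only in the library with JQ1 alone, which also favours a lower effect. Among the 10 largest higher differences, ETV5 and NUSAP1, a spindle protein that went from 700.0 to 222 with JQ1 present and from 990.1 to 45.2 without, were genes that fell less with JQ1, as was CNIH2, an auxiliary subunit of glutamate receptors, at 137 and 9.91 against 620.5 and 5.42. TBC1D3C, TBC1D3G, TRIM74, EIF3C, FAM72A and ATAD3C have close copies and are uncertain.

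**Figure D4:**
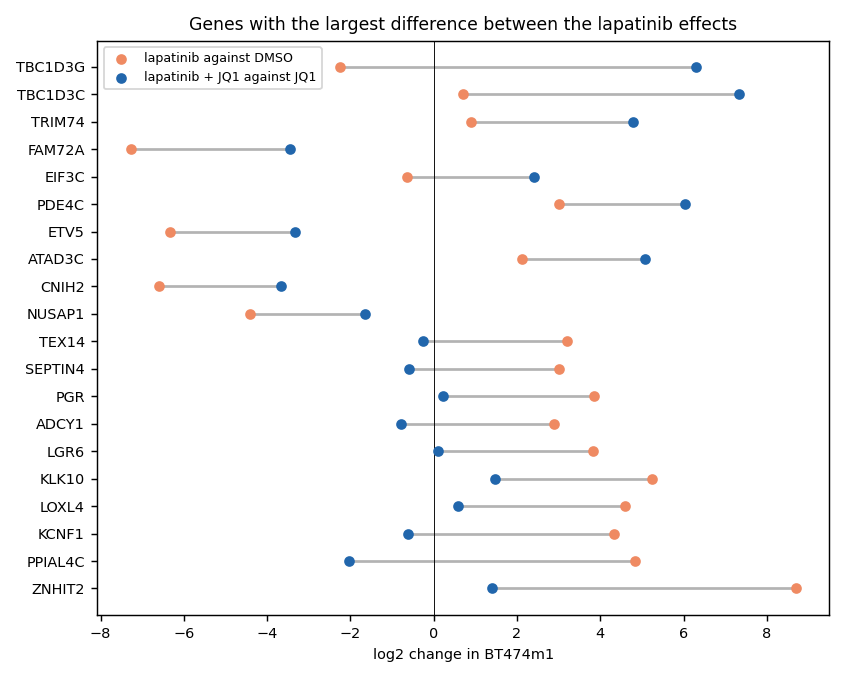
Log2 change in BT474m1 of lapatinib against DMSO (orange) and of lapatinib with JQ1 against JQ1 (blue) for the 10 genes with the largest difference in each direction, joined by a line for each gene. The lower 10 genes, from TEX14 to ZNHIT2, have a higher change without JQ1, with PGR at 3.86 and 0.21. Several of them, TEX14 included, passed the filter only through the library with lapatinib alone, which favours that order.

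SKBR-3 gave the only repeat of adding lapatinib to JQ1, in another line. There 693 of 9823 genes (7.05%) were higher and 1044 (10.6%) lower. Over 9313 genes that passed the filter in both lines, Pearson's r across genes was 0.744 and Spearman's rho 0.560. Of the genes called, 359 genes were lowered in both lines, 76.7% of the 468 in BT474m1 and 38.5% of the 933 in SKBR-3, and 175 were raised in both, 42.3% of 414 and 27.8% of 629. The order of the SKBR-3 shares turned with no filter on low values, to 28.5% of the lowered and 35.2% of the raised. In all 3 contrasts, lapatinib alone in BT474m1 included, 314 genes were lowered and 131 raised of 9249.

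The decreases common to both lines were again cell cycle genes. RRM2 went from 11020.0 to 19.9 in SKBR-3 and all 25 mitotic genes were lower there, against 10.6% of all genes, with a median of -5.63. Among increases common to both lines, CALCOCO1, an autophagy receptor, went from 569.6 to 5136 in BT474m1 (3.17) and from 129 to 1190.0 in SKBR-3. CYP1A1 (5.27 and 2.70), TCP11L2 (2.99 and 4.57), STON1, an endocytic adaptor (2.51 and 3.73), FBXO32, a ubiquitin ligase and FOXO target (2.48 and 3.79), SEMA6C, a semaphorin (2.42 and 3.44), DHRS3, a retinal reductase (2.76 and 2.35), YPEL3 (2.19 and 2.60) and CCDC28A (2.17 and 2.76) followed, with EIF3C, a gene with a close copy. FOXO and PI3K genes were higher in 9 of 18 members in SKBR-3, where 7.05% of all genes were, with a median of 1.07. ERBB3 changed by 1.22 and ERBB2 by 0.85 in SKBR-3, against 1.11 and 0.14 in BT474m1.

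Other genes separated the lines. AGR2 changed by -3.82 in BT474m1 and by -0.63 in SKBR-3, and XBP1, the transcription factor of the unfolded protein response, by 0.17 and 2.05. MUC1, a cell surface mucin, went from 324 to 581 in BT474m1 and from 58.5 to 909 in SKBR-3. ATF4 targets and amino acid supply genes were higher in 0 of 13 and lower in 1 in BT474m1, where 12.5% of all genes were called, with a median of -0.23. In SKBR-3 they were higher in 8 of 15, where 7.05% of all genes were, with a median of 1.10. These differences between lines were not tested, and 12 genes called in opposite directions are given in the closing section.

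**Figure D5:**
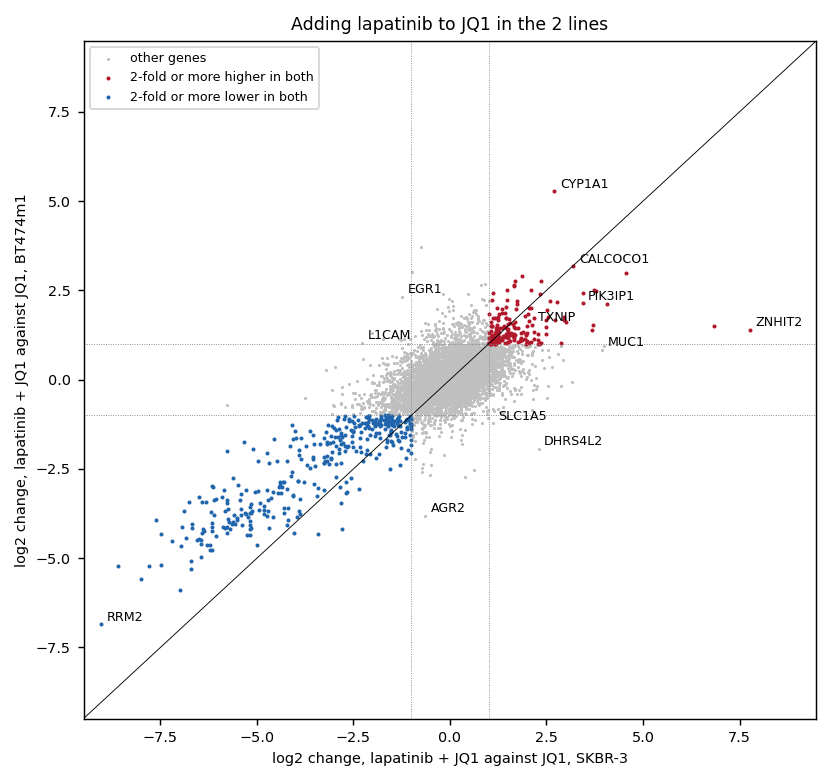
Log2 change of lapatinib with JQ1 against JQ1 in BT474m1 (vertical) and in SKBR-3 (horizontal) for the 9313 genes that passed the filter in both lines, 1 point a gene, with dotted lines at 2-fold and a solid line of equality. The 359 genes lowered in both lines (blue) reach from the dotted lines to RRM2, at -6.85 and -9.04, and the 175 raised in both (red) include CALCOCO1 on the line of equality.

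Among called genes of highest value, increases included nuclear RNAs. MALAT1, a long noncoding RNA of nuclear speckles, had values of 27489 with DMSO, 106381 after lapatinib, 42616 with JQ1 and 135223 with both drugs, where the change on JQ1 was 1.67. NEAT1, the scaffold of paraspeckles, had values of 3968, 24677, 12156 and 43995 (1.86), and LUC7L3, a splicing factor, changed by 1.58. In SKBR-3 the changes were 0.74 for MALAT1, -0.20 for NEAT1 and -0.17 for LUC7L3. Increases of high value also included CLU, the chaperone clusterin (1.15), SAT1, which acetylates polyamines (1.51), MLLT6 (1.35) and GRB7, an adaptor encoded beside ERBB2 (1.01), whose change of 0.95 with scaling by the median of ratios was under 2-fold. Decreases included TUBB, a beta-tubulin, from 22286 to 5677 (-1.97), CFL1, cofilin (-1.21), TMSB10, an actin-binding thymosin (-1.07), and the glycolytic enzymes GAPDH, from 55290.3 to 26205 (-1.08), and PKM, from 34260.4 to 15483 (-1.15). Of 10 genes near ERBB2 on the amplicon, 3 were higher and 0 lower: TCAP, a sarcomere protein (2.78), GSDMB, a gasdermin, from 1038 to 4939.9 (2.25), and GRB7, so that 2 were higher with the median of ratios. Of all genes 6.89% were higher and 5.57% lower, and the list is short. In SKBR-3 1 of 8 was higher, with a median of -0.05, where 7.05% of all genes were higher.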

How the data were processed

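Groups were taken from the labels. The authors deposited signal values for 20531 genes a library, which are RSEM estimates of read counts brought to an upper quartile of 1000. The submitters' processing notes name Picard 1.88, SAMtools 1.2, RSEM, DESeq, R 3.2.2 and DESeq2 1.12.3. They name the hg19 build and the study's methods hg38, so no positions are given beyond those of the RefSeq promoter stretches. The labels name a stranded and an unstranded kit, and whether counting used strand is uncertain. The methods name a shorter treatment than the labels, which were followed. The value of 1 read was recovered as the common step between values. About 84% of values were whole reads within 0.02 (83.8% to 85.2%), too few for a count test. Depth was 26574900 to 34112379 reads on genes in BT474m1. Counting intervals are exact Clopper-Pearson. PCR reads are not independent molecules, so intervals and the floor of 3 reads cover counting error only.

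Changes were computed with pandas 2.3.3, numpy 2.4.6 and scipy 1.17.1 under Python 3.11.15, and the method was tested on simulated data. Members and the 36 gene lists were chosen with earlier results of these data known. Named were the 15 genes that rose and the 15 that fell most, the 8 called genes of highest value each way, the 10 with the largest difference of effects, the 10 with the largest change common to 2 contrasts, and of each list the 4 largest changes and the highest value. PLK1, CCNB2, BUB1B, CENPA and PIK3CA, and the genes called in opposite directions, were chosen after values were seen. Results for some genes that the rule takes are not reported here. Alternatives were equal totals or a median of ratios as scaling, 10 as pseudocount, filters of 10, 1000 or none, the interval as a criterion, and the mean of a list.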

Additional observations from a re-analysis of the deposited data

Results flagged for a closer look

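TFF3 is listed because lapatinib alone raised it in BT474m1 and lapatinib added to JQ1 lowered it, with log2 changes of 1.33 and -1.12. The other 12 genes passed 2-fold in opposite directions in the 2 lines when lapatinib was added to JQ1. All were picked with their values known, and none of the differences was tested, since each group held 1 library. Higher in BT474m1 and lower in SKBR-3 were AJM1 (1.10 and -1.27), ANKRD13B (1.14 and -1.73), ANKRD9 (1.15 and -1.04), EGR1 (2.31 and -1.23), IFT81 (1.13 and -1.20), L1CAM (1.04 and -2.27), NSUN5P2 (1.13 and -1.31), RPS6KL1 (1.18 and -1.08) and SLC43A2 (1.30 and -2.02). Lower in BT474m1 and higher in SKBR-3 were DHRS4L2 (-1.94 and 2.30), SLC1A5 (-1.23 and 1.10) and SRARP (-1.06 and 1.49). SLC1A5, a glutamine transporter, had values of 5651 and 2412 in BT474m1 with JQ1 and with both drugs, and of 8795 and 18897 in SKBR-3. L1CAM, a cell adhesion protein, had values of 54.1 and 112 in BT474m1 and 3324 and 688 in SKBR-3. Its change in BT474m1 was under 2-fold with a pseudocount of 10 and with the median of ratios. NSUN5P2 and DHRS4L2 have close copies and are uncertain.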

How the results depend on the processing

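With 1 library a group, no replicate could be left out and the spread between cultures is unknown. No paired analysis was possible because each group held 1 library and the labels give no pairing beyond it. Scaling to equal totals, scaling by the median of ratios and 10 as pseudocount moved no count of genes by over 1.5 times. Nor did the interval as a criterion, an outcome that the filter and the 2-fold rule fix in advance. Single values did move: of 222 named changes, 62 with the median of ratios, 43 with equal totals and 33 with a pseudocount of 10 left their counting interval. The share of called genes that fell was 44.7% as reported, 50.2% with the median of ratios and 41.4% with equal totals. Of 120 named genes that were called, 118 remained so with a pseudocount of 10, 115 with the median of ratios and 120 with equal totals. BBC3 and L1CAM were lost in the first 2, and ATG14, CRY2 and GRB7 in the second.

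The filter moved the counts, and the cause was not tested. With filters of 10, none and 1000, lapatinib added to JQ1 in BT474m1 raised 1598, 2374 and 163 genes and lowered 914, 1237 and 154. Lapatinib alone raised 1865, 2658 and 277, and lowered 1420 and 248 with none and 1000. In SKBR-3 the raised genes were 1105, 1606 and 295, and the lowered 2066 and 343 with none and 1000. Genes raised with and without JQ1 were 1162, 1573 and 110, and those lowered 757 and 113 with none and 1000. Pearson's r of these contrasts was 0.744 with no filter. Genes raised in both lines were 355, 566 and 44, and those lowered 588 and 84 with none and 1000, with r of 0.643 and 0.454 with filters of 10 and none. Effects higher with JQ1 numbered 573, 1214 and 58, and lower 603, 1187 and 70. Of 32 list medians, 8 moved by more than the counting error with the median of ratios, 2 with equal totals, 0 with a pseudocount of 10, 8 and 10 with filters of 10 and none, and 15 with the mean in place of the median, as did 20 of 31 with the filter of 1000. The largest shifts were 0.061 and 0.040 for the 2 scalings, 0.27 for the pseudocount, 0.50 for the filters of 10 and none, 0.61 for the mean and 2.44 for the filter of 1000. The sign turned for the forkhead list with the median of ratios and the mean, and for the estrogen receptor targets with each of the 3 filters. The median of the E2F, MYB and pocket protein list turned from -2.37 to 0.065 with the filter of 1000, which removes its low members.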

Other observations

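In the other lists, called genes are to be read against 12.5% of all genes called in either direction when lapatinib was added to JQ1 in BT474m1, a share at which short lists can hold 0. None of 18 ribosome biogenesis genes, 14 endoplasmic reticulum chaperones, 10 heat shock chaperones, 8 MHC class I genes, 9 Notch genes or 6 keratins was called, with medians of -0.32, 0.37, -0.28, 0.16, -0.14 and -0.17. HSP90B1, a chaperone of the endoplasmic reticulum, had values of 5677 with JQ1 and 10729 with both drugs (0.92), and NCL, nucleolin, of 13769 and 10836 (-0.35). In SKBR-3 6 of 18 ribosome biogenesis genes were lower, where 10.6% of all genes were.

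BCL2-family genes held 2 increases and 1 decrease among 11. BMF, a BH3-only protein, went from 727 to 2215 (1.61), BBC3, which encodes PUMA, from 334 to 672, and BID, another BH3-only protein, fell from 469.9 to 226 (-1.05). The clock list held 2 increases among 12, DBP, a PAR bZIP factor, from 127 to 426 (1.74), and CRY2, a core repressor, from 387 to 802. Of 17 lysosome and autophagy genes 3 were higher: CALCOCO1, CTSL, a cathepsin, from 568 to 1679 (1.56), and ATG14, a subunit of the autophagy lipid kinase (1.04). BBC3, CRY2 and ATG14 lay just past 2-fold and were under it with scaling by the median of ratios. Interferon-stimulated genes held 1 increase among 9, IRF9, part of the ISGF3 factor, from 79.2 to 225. Of 16 glycolysis genes 2 were lower, GAPDH and PKM, and 1 was higher, PDK2, a kinase that restrains pyruvate dehydrogenase, from 148 to 719 (2.27). In the forkhead list FOXM1 was the 1 decrease among 10, and in the breast secretory list TFF3 the 1 decrease among 8.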
